A study of Saccharomyces pastorianus with 12 samples.

Results

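The 32 genes described here are those through which a yeast cell makes sterols, stores them as esters and takes them up from its surroundings. They were chosen by pathway membership from textbook knowledge of Saccharomyces cerevisiae, not by a measured value, and comprise 32 of the 5635 S. cerevisiae genes that the arrays represented and of the 5503 that were tested. A first group of 10 genes encodes the enzymes that carry acetyl-CoA to squalene (ERG10, ERG13, HMG1, HMG2, ERG12, ERG8, MVD1, IDI1, ERG20 and ERG9). A further 5 enzymes use molecular oxygen (ERG1, ERG11, ERG25, ERG3 and ERG5), 2 proteins hand electrons to them (NCP1 and CYB5), and 8 genes act after squalene without oxygen (ERG7, ERG24, ERG26, ERG27, ERG28, ERG6, ERG2 and ERG4). These 25 synthesis genes were joined by 3 transcriptional regulators (UPC2, ECM22 and SUT1), 2 esterification enzymes (ARE1 and ARE2) and 2 uptake transporters (AUS1 and PDR11). Each of the 32 had exactly 1 probe set of its own.

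Ergosterol is the main sterol of the yeast plasma membrane. The route from squalene to ergosterol uses molecular oxygen at several steps, so a yeast without air cannot make it and depends on stored esters or on sterol taken up from the medium. Brewers aerate wort during propagation because cells build up the sterol reserve on which the later, nearly anaerobic fermentation draws. In S. cerevisiae, Upc2 and Ecm22 are zinc cluster factors that activate many ERG genes when sterols are low, and Aus1 and Pdr11 are ATP-driven transporters that bring sterol into cells growing without oxygen.

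The series followed the lager yeast Saccharomyces pastorianus, strain CB11, through a brewery propagation in a vessel of 140 hl that had been seeded from an aerobic vessel of 8 hl. The groups were 0h, sampled directly after inoculation, 4h, 8h and 30h, with 3 samples each (lettered A, B and C) and 1 single-colour Affymetrix array per sample. All groups shared the strain and a wort of 17° Plato at 20 °C, made of 80% malt with maltose adjunct as the other 20%, to which zinc was added to 0.5 mg/l and oxygen to a steady 7 to 8 mg/l. The labels speak of triplicate samples without saying whether more than 1 propagation was run. A p-value here thus reflects only how far such samples differ, a spread that may be technical. There was no arm without oxygen and none outside the brewery. The strain is a hybrid of S. cerevisiae and a second species, and a signal sums whatever RNA bound the S. cerevisiae probes.

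The arrays differed in ways that touch every value below. The median deposited signal over genes ranged from 133.7 to 421 on the 0h arrays, from 96.29 to 102.4 on the 4h arrays and from 31.46 to 75.88 on the 8h and 30h arrays. Values below were therefore quantile-normalised, which makes them relative within an array. The SD of log2 signal over genes was 1.913 to 2.03 on the 0h and 4h arrays and 1.212 to 1.333 on the 8h and 30h arrays, and the rank correlation between an early and a late array was 0.205 to 0.402 over the 36 such pairs. The median ratio of 3′ to 5′ signal over 8 control genes, which rises when RNA is broken, was 35.5 on 0h A, 6.96 on 0h C and 1.3 to 2.02 on the other 10 arrays. The signal of a spike-in control over that of the median gene was 63.95 on 0h A, 0.441 on 0h B and 15.85 on 0h C. It was 22.1 to 29.0 on the 4h arrays and 105.7 to 182.8 on the 8h and 30h arrays. The part of these differences in the results was not tested. At 8h against 4h and at 30h against 0h they cannot be told apart from time.

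The sterol genes stood clear of the arrays' background. The array also carries probe sets for the fission yeast Schizosaccharomyces pombe, an organism that the culture should not hold, and 20 of those name S. pombe genes with the same symbols as members. Between 30 and 32 of the 32 members exceeded the 95th percentile of all S. pombe signals on each array, against 1 to 5 of the 20 namesakes. The median deposited signal of the members was 34.6 to 2466 per array, against 1.44 to 11.9 for the namesakes. The exceptions among the members were ERG27 (above background on 2 of the 3 30h arrays), ARE1 (on 2 of 3 at 8h) and UPC2 (on 2 of 3 at 8h and on 2 of 3 at 30h).

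Most of the sterol genes that changed did so between 4h and 8h, with synthesis genes mainly falling and the uptake transporters rising. A gene was called higher or lower when its limma adjusted p, by the Benjamini-Hochberg method over all 5503 genes, was under 0.05. At 8h, 4 of the 32 genes were called higher than at 4h (30.7% of all genes were) and 22 lower (33.9% of all genes were). The median change over the 32 was -1.25 on the log2 scale, against -0.12 over all genes. At 30h, 3 were called higher than at 0h (31.2% of all genes) and 21 lower (33.3% of all genes), with a median of -1.18 against -0.11 over all genes. Both comparisons span the interval from 4h to 8h. They share no array, but both set early arrays against late ones, whose spread of signal over genes differed. They also share the normalisation and each gene's pooled spread.

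Changes before 4h and after 8h were few. At 4h, 1 of the 32 was called higher than at 0h (11.8% of all genes) and 4 lower (also 11.8% of all genes), with a median change of 0.03 over the members and 0.02 over all genes. At 30h, none was called higher than at 8h by limma (0.909% of all genes) and 1 lower (2.73% of all genes). At an unadjusted p under 0.05 those 2 counts were 1 and 9, and without 0h A, which entered only through the pooled spread and the normalisation, they were 1 (ARE2) and 4 (ERG3, ERG27, ERG28 and ERG4) after adjustment. Without 30h A the second count was 2 (ERG10 and ECM22). The 4 falls at 4h were ERG8, ERG3, CYB5 and ERG7, of which 1 was left without 0h C or 4h A and none without 4h B or 4h C by the limma test (6 of the 32 fell with all arrays at an unadjusted p under 0.05). ERG12 was called higher at 4h without 0h B (1.07, limma adjusted p = 0.0317). Successive comparisons share an array group, so their values are set side by side and not correlated. In bulk samples such as these, fewer cells expressing a gene and less RNA per cell cannot be told apart.

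**Figure D1:**
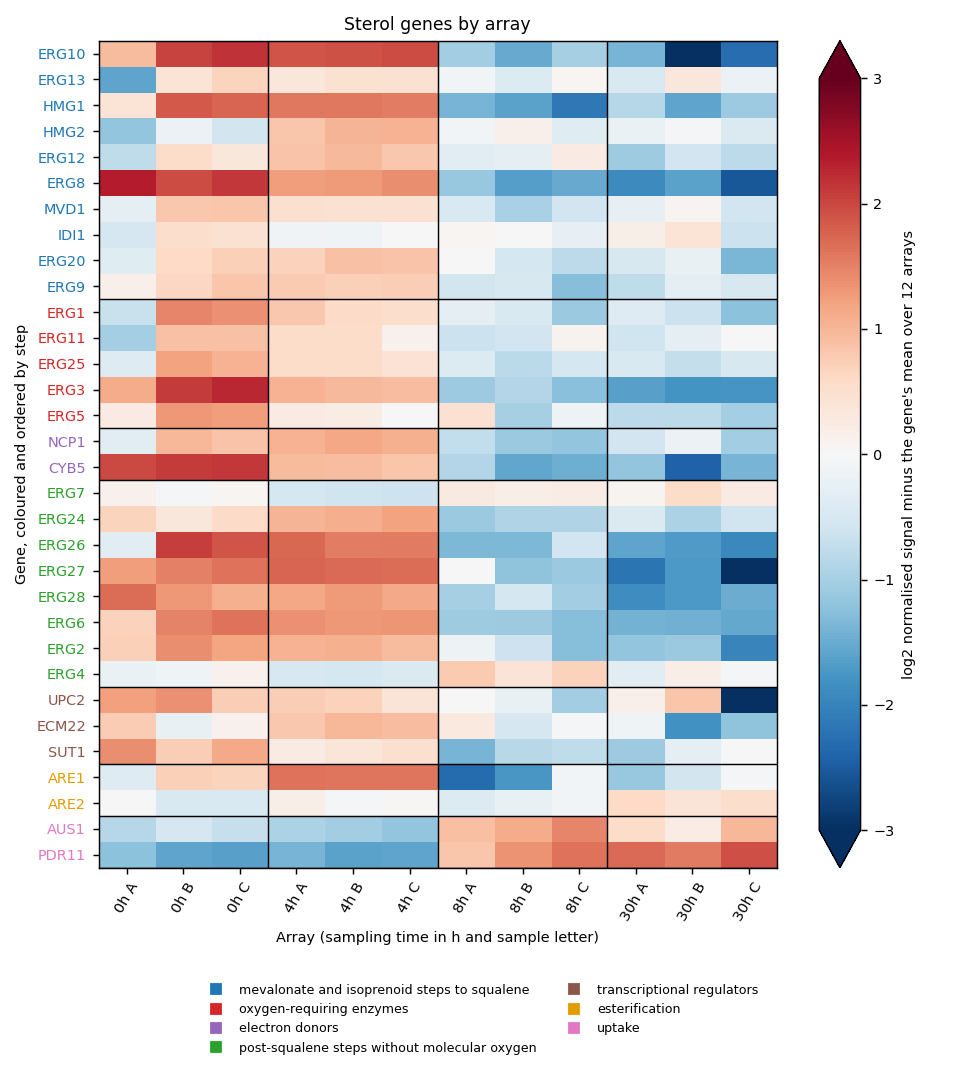
Normalised level of the 32 sterol genes (rows, by step of the pathway) on each of the 12 arrays (columns, by time and sample letter), as the log2 difference from the gene's mean over all arrays, with colours clipped at -3 and 3. Most synthesis genes are above their mean on the 0h and 4h arrays and below it on the 8h and 30h arrays, AUS1 and PDR11 are the other way round, and 0h A is paler than 0h B and 0h C for many genes.

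How bright a gene was to begin with matters for reading those counts. Of the 25 synthesis genes, 23 lay in the brightest quartile of all tested genes at 4h, and in that quartile 66.2% of all genes were called lower at 8h and 7.41% higher, with a median change of -1.25. Of the 23 sterol genes there, 17 were called lower and 2 higher. The share of sterol genes that fell stands beside 66.2% as well as 33.9%. At 30h against 0h, 65.6% of the genes in the brightest quartile at 0h were called lower, and 18 of the 23 sterol genes there were. A level that is itself part of the change sorts genes partly by that change, and when genes were sorted by their mean over all 12 arrays the brightest quartile had 34.7% lower and 32.5% higher at 8h against 4h, with 12 lower and 2 higher among the 18 sterol genes in it. Probe-set signals were ranked here only to find like-bright genes, since signals of different probes do not measure relative RNA amounts.

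**Figure D2:**
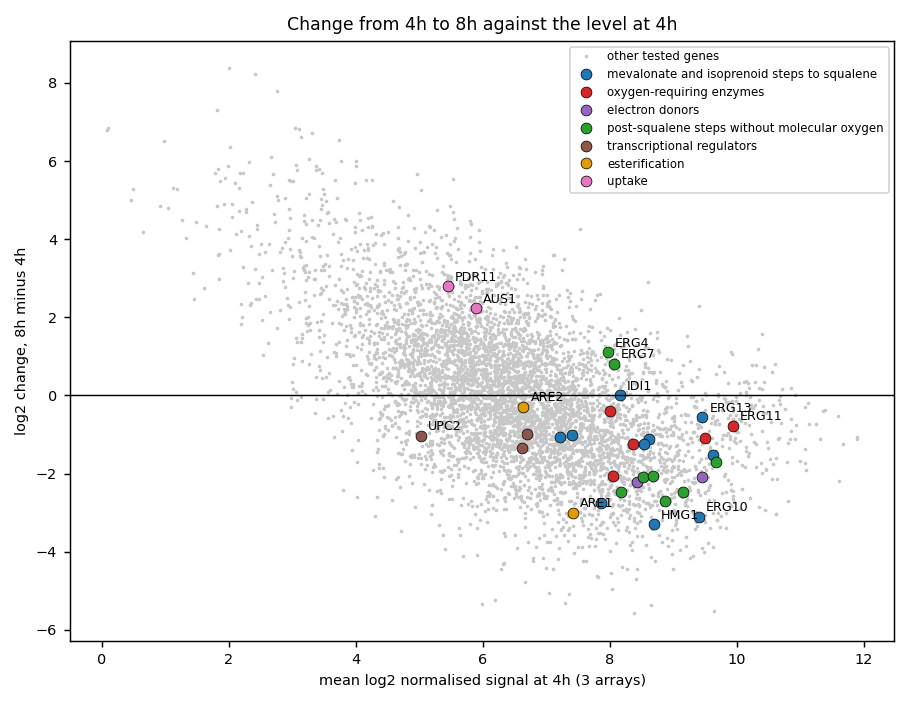
Change at 8h against 4h (log2, vertical axis) of every tested gene (grey) and of the 32 sterol genes (coloured by step) against the gene's mean log2 signal at 4h. Bright genes at 4h lie mostly below 0 and dim ones above it; the synthesis genes sit at the bright end, ERG7 and ERG4 stand above 0 there, and AUS1 and PDR11 are at the dim end.

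The isoprenoid part of the pathway was mostly lower in the late samples. At 8h, 8 of its 10 genes were called lower than at 4h, against 33.9% of all genes and 66.2% of the brightest quartile, with a median change of -1.19. At 30h, 7 of 10 were called lower than at 0h, against 33.3% of all genes and 65.6% of the brightest quartile, with a median of -0.93. Both counts are near the shares among like-bright genes. ERG10 encodes the acetyl-CoA acetyltransferase that condenses 2 acetyl-CoA, and its normalised signal was 346, 728 and 804 at inoculation, 662, 666 and 694 after 4 h, 86.0, 62.2 and 89.2 after 8 h, and 67.6, 14.0 and 36.7 after 30 h. No late array reached the lowest early one. The change was -3.11 ± 0.46 (SE, n = 3 arrays per time; limma adjusted p = 4.97e-05) at 8h against 4h, and -4.17 ± 0.46 (limma adjusted p = 3.43e-06) at 30h against 0h.

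HMG1 and HMG2 encode the 2 isozymes of HMG-CoA reductase, which makes mevalonate and is the main control point of the route. HMG1 signals were 184, 502 and 466 at inoculation, 420.3, 418 and 404 after 4 h, 52.8, 45.8 and 31.4 after 8 h, and 77.4, 46.3 and 65.7 after 30 h. HMG1 thus dropped by 3.29 ± 0.36 (limma adjusted p = 3.15e-06) at 8h against 4h, or 9.78-fold. HMG1 and ERG10 were the 2 genes of the 32 with the largest falls in that comparison, in that order here and in the other order with arrays centred on their medians (-3.70 and -3.84) or on the deposited scale (-4.83 and -4.97). HMG2 signals were 33.0, 66.7 and 51.5 at inoculation, 134, 154 and 156 after 4 h, 71.0, 84.0 and 58.8 after 8 h, and 66.0, 72.5 and 56.2 after 30 h. The 3 4h arrays were the highest of the 12 for HMG2. It was the only one of the 32 called higher at 4h than at 0h, by 1.61 ± 0.28 (limma adjusted p = 0.00108), and the call held without any one array; on the deposited scale, where the median gene changed by -1.17, the change was 0.68 (limma adjusted p = 0.288). At 8h HMG2 fell below its 4h level, with a change of -1.07 ± 0.28 (limma adjusted p = 0.00389), and at 30h its arrays overlapped those of 0h (0.42 ± 0.28, limma adjusted p = 0.199).

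ERG8 and IDI1 mark the extremes of the rest of this segment. ERG8 encodes phosphomevalonate kinase, with signals of 480.1, 361 and 403 at inoculation, 223, 225 and 247 after 4 h, 42.1, 29.8 and 32.9 after 8 h, and 24.6, 30.4 and 16.04 after 30 h. The times did not overlap up to 8h, and 30h overlapped 8h. Its change at 30h against 0h was -4.17 ± 0.26 (limma adjusted p = 4.88e-08), or 18-fold lower. Its change at 4h against 0h was -0.83 ± 0.26 (limma adjusted p = 0.0364), a call that was lost when 0h A, 0h C or any of the 4h arrays was left out (limma adjusted p up to 0.123). IDI1, the isomerase that makes the allylic isoprenoid unit, had 209.7, 428 and 407 at inoculation, 279, 275 and 300.4 after 4 h, 309, 303 and 252 after 8 h, and 339.6, 397 and 190.0 after 30 h. Its arrays overlapped in all 4 comparisons, and its change at 8h against 4h was 0.01 ± 0.31 (limma adjusted p = 0.98); with arrays centred on their medians instead it was -0.81 (limma adjusted p = 0.038), and at 30h against 0h -0.98 (limma adjusted p = 0.0169).

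The other isoprenoid genes fell by smaller amounts or did not pass the test. ERG12 (mevalonate kinase), MVD1 (the decarboxylase that makes isopentenyl diphosphate), ERG20 (farnesyl diphosphate synthase) and ERG9 (squalene synthase) changed by -1.0004, -1.12, -1.25 and -1.53 at 8h against 4h, with limma adjusted p between 0.000158 for ERG9 and 0.0132 for ERG12. At 30h against 0h the same 4 genes changed by -0.85, -0.71, -1.01 and -1.04, with limma adjusted p between 0.0029 for ERG9 and 0.048 for MVD1. The call on ERG9 held without any one array. The calls on the other 3 at 30h against 0h were lost without 0h B (limma adjusted p of 0.139 for ERG12, 0.172 for MVD1 and 0.0693 for ERG20), without 0h C (0.107, 0.18 and 0.0852) and without 30h C (0.0615, 0.161 and 0.108). That on ERG12 was also lost without 30h A (0.0989) and with median centring (0.0831), and that on MVD1 without any of 7 further arrays, all but 0h A and 30h B (up to 0.0885). ERG13, which encodes HMG-CoA synthase, had signals of 393 to 544 at 8h against 666 to 719 at 4h, a change of -0.56 ± 0.45 (limma adjusted p = 0.281); without 0h A, whose signal of 175 compares with 692 and 830.1 on 0h B and 0h C, the value was -0.53 (limma adjusted p = 0.0301). It also depended on the scaling, being -1.95 (limma adjusted p = 0.00599) with arrays centred on their medians and -3.08 (limma adjusted p = 0.000412) on the deposited scale.

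**Figure D3:**
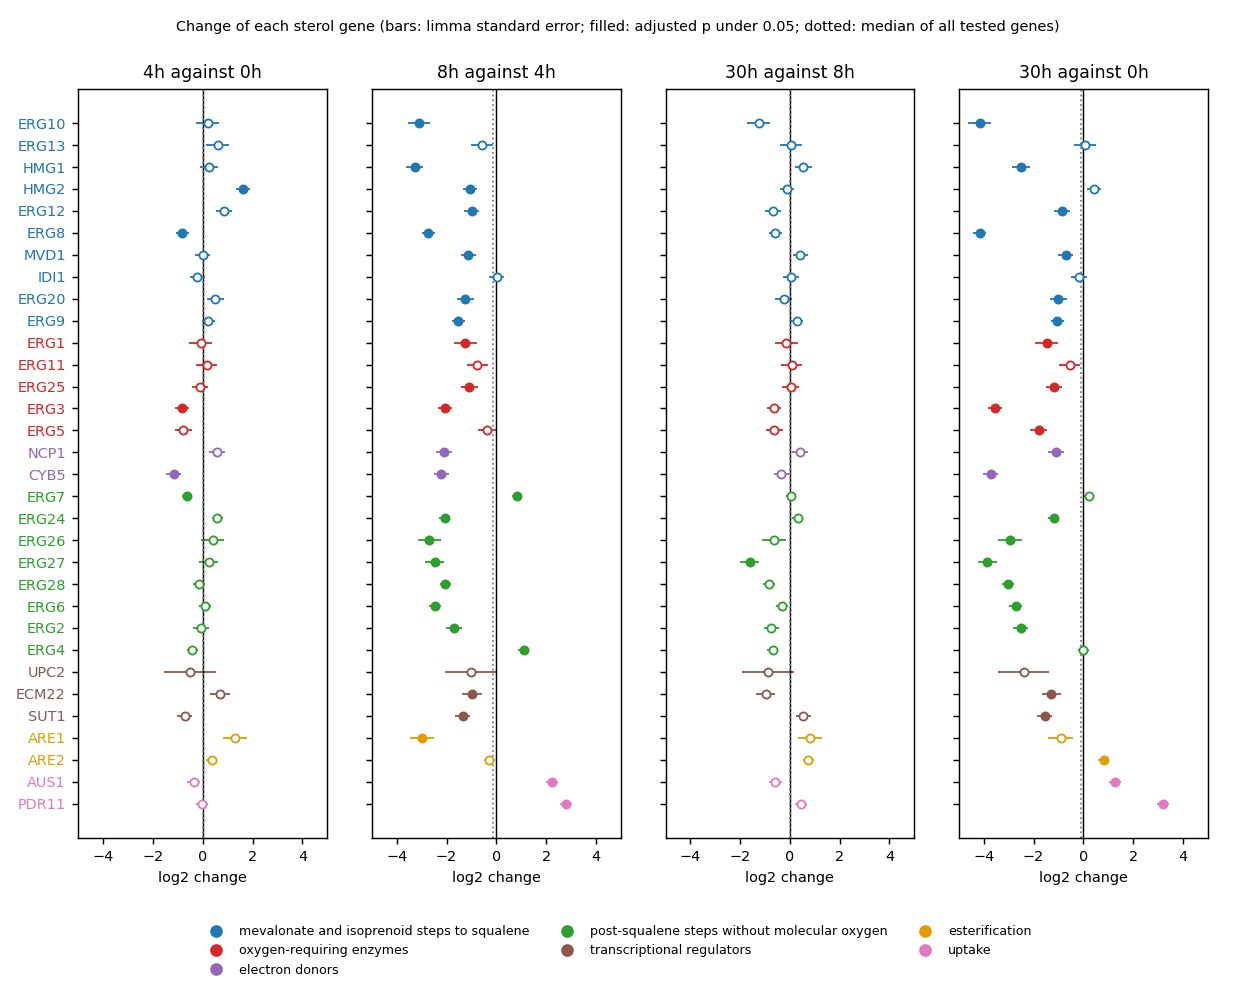
Log2 change of each of the 32 sterol genes, grouped by step, in the 4 comparisons of a later with an earlier time; points are limma estimates, bars their standard errors (3 arrays per time), and filled points passed an adjusted p of 0.05. The points of 8h against 4h and of 30h against 0h lie mostly left of 0, with AUS1 and PDR11 right of it, while those of 30h against 8h cluster around 0.

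Most of the enzymes that use oxygen were lower at the end of the propagation than at its start. At 30h, 4 of the 5 were called lower than at 0h, where 33.3% of all genes and 65.6% of those in the brightest quartile at 0h were; ERG11 was not called, and the median was -1.48. At 8h, 3 of 5 were called lower than at 4h, against 33.9% of all genes and 66.2% of the brightest quartile at 4h, with a median of -1.08. For so few genes, both counts are near the shares among like-bright genes. At 4h, 1 of 5 was called lower than at 0h (11.8% of all genes and 20.4% of the brightest quartile at 0h), with a median of -0.12. At 30h none of the 5 differed from 8h by the limma test, with changes from -0.65 to 0.07, and none had an unadjusted p under 0.05 except ERG3.

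ERG3, the desaturase that adds a double bond late in the route, fell the furthest of the 5. Its signals were 288, 574 and 642 at inoculation, 277, 261 and 255 after 4 h, 62.7, 72.4 and 56.6 after 8 h, and 43.6, 38.8 and 39.4 after 30 h. Each time lay wholly below the one before it. The change was -3.55 ± 0.28 (limma adjusted p = 1.84e-07) at 30h against 0h and -2.06 ± 0.28 (limma adjusted p = 2.36e-05) at 8h against 4h, and both calls held without any one array. At 4h against 0h it was -0.84 ± 0.28 (limma adjusted p = 0.043); that call was lost without any of 0h B, 0h C, the 4h arrays, 8h B, 30h B or 30h C (limma adjusted p up to 0.154) and was -1.15 (limma adjusted p = 0.000531) without 0h A.

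ERG11 encodes the lanosterol demethylase, the target of azole antifungals, and was the oxygen-requiring gene with the smallest change at 30h against 0h. Its signals were 363, 1359 and 1359 at inoculation, 1077, 1077 and 809.8 after 4 h, 475, 498 and 798 after 8 h, and 486, 612 and 731 after 30 h. The 8h arrays lay below the 4h arrays, and 0h A lay below every other array. The changes were -0.77 ± 0.42 (limma adjusted p = 0.121) at 8h against 4h and -0.54 ± 0.42 (limma adjusted p = 0.271) at 30h against 0h. Both calls turned on 1 array and on the scaling. Without 0h A the changes were -0.73 (limma adjusted p = 0.00845) and -1.11 (limma adjusted p = 0.00113). With arrays centred on their medians they were -2.31 (limma adjusted p = 0.000923) and -1.81 (limma adjusted p = 0.005), and on the deposited scale -3.44 and -3.58.

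ERG1 encodes squalene epoxidase, the first step that needs oxygen. Its signals were 133, 591 and 552 at inoculation, 374, 318 and 304 after 4 h, 176, 155 and 99.0 after 8 h, and 164, 136 and 90.3 after 30 h. It changed by -1.25 ± 0.46 (limma adjusted p = 0.0294) at 8h against 4h and by -1.48 ± 0.46 (limma adjusted p = 0.0123) at 30h against 0h. The 8h call was lost without any of the 4h arrays, 8h B or 8h C (limma adjusted p up to 0.117), and that of 30h against 0h without 0h B, 0h C or 30h C (up to 0.0605). ERG25, the methyl sterol oxidase, had 389.6, 1179 and 1053 at inoculation, 741, 745 and 683 after 4 h, 384, 291 and 354 after 8 h, and 369, 309 and 366 after 30 h. It fell by 1.08 ± 0.33 (limma adjusted p = 0.0113) at 8h against 4h and by 1.18 ± 0.33 (limma adjusted p = 0.00698) at 30h against 0h, and no single array ended either call. ERG5, the cytochrome that desaturates the sterol side chain, had 273, 561 and 551 at inoculation, 272, 265 and 230.4 after 4 h, 315, 115 and 206 after 8 h, and 134, 134 and 112 after 30 h. It fell by 1.80 ± 0.35 (limma adjusted p = 0.000476) at 30h against 0h, while its 8h arrays spread over those of 4h (-0.39 ± 0.35, limma adjusted p = 0.348). That value was -1.01 (limma adjusted p = 0.0263) with arrays centred on their medians and -2.15 (limma adjusted p = 0.00243) on the deposited scale.

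Both electron donors were lower late. NCP1 encodes the NADPH-dependent reductase that serves the cytochromes of the pathway, and CYB5 encodes cytochrome b5, which can stand in for it at some steps. CYB5 had 727, 792 and 798 at inoculation, 354, 350.0 and 327 after 4 h, 99.6, 62.1 and 66.3 after 8 h, and 81.1, 34.4 and 70.3 after 30 h. The 3 0h arrays agreed closely, 0h A included. CYB5 changed by -1.17 ± 0.30 (limma adjusted p = 0.0135) at 4h against 0h, by -2.21 ± 0.30 (limma adjusted p = 2.43e-05) at 8h against 4h and by -3.73 ± 0.30 (limma adjusted p = 2.22e-07) at 30h against 0h, a 13.3-fold difference. The call at 4h was lost without 4h B (limma adjusted p = 0.0502) or 4h C (limma adjusted p = 0.0521), with changes of -1.14 and -1.11. NCP1 differed from CYB5 in its 4h level: its signals were 669.9, 732 and 687 at 4h against 265, 652 and 591 at 0h (0.58 ± 0.32, limma adjusted p = 0.215). It fell by 2.10 ± 0.32 (limma adjusted p = 7.33e-05) at 8h against 4h, with 145 to 195 on the 8h arrays.

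The 8 post-squalene genes that need no oxygen split into 6 that fell and 2 that rose at 8h against 4h. Of all genes, 33.9% were called lower and 30.7% higher, and of the brightest quartile at 4h, 66.2% and 7.41%. The 6 falls are near the share among like-bright genes. The median over the 8 was -2.06. ERG26 and ERG27 (2 enzymes of the demethylation complex in which ERG25 acts), ERG28 (its scaffold), ERG24 (a sterol reductase), ERG6 (the methyltransferase that gives ergosterol its extra side-chain carbon) and ERG2 (the sterol isomerase) changed by -2.69 to -1.70, with limma adjusted p from 1.5e-06 for ERG6 to 0.0003 for ERG2. None of these 6 calls was lost when any one array was left out. ERG6 had 361, 628 and 692 at inoculation, 583, 554 and 562 after 4 h, 108, 105 and 93.3 after 8 h, and 84.1, 82.4 and 78.0 after 30 h, so that every late array lay below every early one. At 30h against 0h the same 6 were called lower, with changes of -1.19 for ERG24 to -3.86 for ERG27, and the median over the 8 was -2.62. In that comparison 33.3% of all genes and 65.6% of the brightest quartile at 0h were called lower.

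ERG27, the keto-reductase of the demethylation complex, was the only member called at 30h against 8h. Its signals were 212, 252 and 274 at inoculation, 294, 288 and 281 after 4 h, 88.0, 38.4 and 40.7 after 8 h, and 19.4, 26.7 and 9.14 after 30 h. The 30h arrays lay below the 8h arrays, and 30h C was not above background. The change was -1.62 ± 0.38 (limma adjusted p = 0.0297). The call was lost when any of the 4h arrays, 8h A, 30h A or 30h C was left out (limma adjusted p up to 0.111), and it did not hold on the deposited scale (-0.61, limma adjusted p = 0.528) or with arrays centred on their medians (-1.17, limma adjusted p = 0.127).

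ERG7 and ERG4 went the other way at 8h. ERG7 encodes lanosterol synthase, which closes the sterol ring system, and had 439, 387 and 418 at inoculation, 278, 264 and 259.9 after 4 h, 478, 459.9 and 469 after 8 h, and 419, 581 and 472 after 30 h. The 4h arrays were the lowest of the 12. ERG7 changed by -0.63 ± 0.20 (limma adjusted p = 0.0331) at 4h against 0h, a call lost without 0h C or any array of 4h (limma adjusted p up to 0.122), and rose by 0.81 ± 0.20 (limma adjusted p = 0.0025) at 8h against 4h. ERG4 encodes the reductase of the last step, and had 305, 321 and 383 at inoculation, 252, 242 and 257 after 4 h, 607, 455 and 563 after 8 h, and 275, 400.2 and 335.7 after 30 h. It was higher by 1.10 ± 0.22 (limma adjusted p = 0.000524) at 8h against 4h, while its 30h arrays overlapped those of 0h (-0.01 ± 0.22, limma adjusted p = 0.974). Both rises depended on the scaling: with arrays centred on their medians, ERG7 changed by -0.19 (limma adjusted p = 0.381) and ERG4 by 0.09 (limma adjusted p = 0.706), and on the deposited scale, where the median gene changed by -1.28, the changes were -1.32 and -1.05. Median centring gave falls for both at 30h against 0h, of -0.89 (limma adjusted p = 0.000953) for ERG7 and -0.83 (limma adjusted p = 0.00205) for ERG4, and the deposited scale gave -2.67 and -2.61. Under all 3 scalings the 8h values of both lay above those of the other 6 genes of their segment.

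Set side by side, the steps before squalene, those with oxygen and those after squalene without oxygen all had negative medians in both comparisons that span 4h to 8h, and no test was made of a difference between them. At 8h against 4h the medians were -1.19, -1.08 and -2.06 and the called falls 8 of 10, 3 of 5 and 6 of 8 (33.9% of all genes, 66.2% of the brightest quartile). All genes of the brightest quartile at 4h had a median of -1.25. At 30h against 0h the medians were -0.93, -1.48 and -2.62 and the called falls 7 of 10, 4 of 5 and 6 of 8 (33.3% of all genes, 65.6% of the brightest quartile). All genes of the brightest quartile at 0h then had a median of -1.31. The ranges within a segment were wider than the gaps between medians: -4.17 to 0.42, -3.55 to -0.54 and -3.86 to 0.23 in that comparison.

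At 4h against 0h the picture for the oxygen-requiring enzymes turned on 1 array. Sample 0h A, whose 3′ to 5′ ratio was 35.5, had the lowest signal of the 3 0h arrays for 23 of the 32 sterol genes (71.9%), against 44.7% of all genes. The median difference of 0h A from the mean of 0h B and 0h C was -0.85 over the sterol genes and 0.02 over all genes, and the largest were -2.29 for ERG26, -2.12 for ERG13, -2.10 for ERG1 and -1.90 for ERG11. Without 0h A, 3 of the 5 oxygen-requiring enzymes were called lower at 4h than at 0h (13.9% of all genes were lower then), and the median of the 5 was -0.75 against 0.06 over all genes. With all arrays, 20.4% of the brightest quartile at 0h were called lower in that comparison, with a median of -0.18. The 3 were ERG3 (-1.15, limma adjusted p = 0.000531), ERG5 (-1.08, limma adjusted p = 0.0198) and ERG25 (-0.58, limma adjusted p = 0.0269). The isoprenoid segment then had a median of -0.14 with no gene called lower, and the 8 post-squalene genes a median of -0.23 with 1 called lower and 1 higher. With 0h C, whose ratio was 6.96, also left out, leaving 0h B as the only 0h array, ERG3 was still called (-1.06, limma adjusted p = 0.0139) and ERG5 (-1.07, limma adjusted p = 0.101) and ERG25 (-0.67, limma adjusted p = 0.0822) were not; the lone array was then assumed to vary as the other groups did. Of the 4 falls called at 4h with all arrays, ERG3 was then the only one left.

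Array 0h A also moved the comparison of the end with the start. Without it, 5 of the 5 oxygen-requiring enzymes were called lower at 30h than at 0h, with a median of -2.08, and 24 of the 32 sterol genes were (36.4% of all genes), against 21 with it. With all arrays, 65.6% of the brightest quartile at 0h were called lower in that comparison. The calls gained included ERG13, whose change was -0.59 (limma adjusted p = 0.0311) in place of 0.08 ± 0.45 (limma adjusted p = 0.885). With 0h A and 0h C both left out, 0h B alone stood for 0h, and any call then rests on an assumed spread for that array. Array 0h B was also the lowest of all arrays on the spike-in control. ERG12, MVD1, ERG20 and ERG1, which were lost without other single arrays, had changes of -1.23, -1.04, -1.32 and -2.12 without 0h A. The spread at 0h was wider than at 4h: the median SD of log2 signal over the 32 genes was 0.51 at inoculation, 0.07 after 4 h, 0.30 after 8 h and 0.35 after 30 h, while the test pooled 1 spread per gene over the 4 times.

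**Figure D4:**
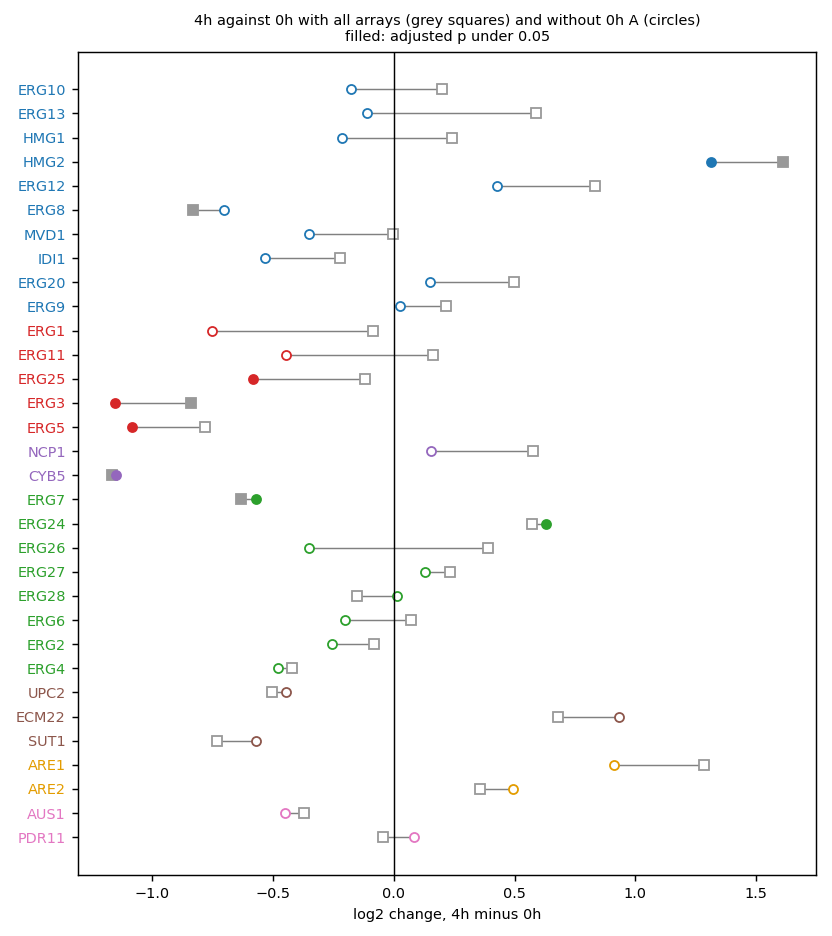
Log2 change of the sterol genes at 4h against 0h with all 12 arrays and without array 0h A, by step; filled points passed a limma adjusted p of 0.05. Leaving out 0h A moves most genes to the left, and the 5 oxygen-requiring enzymes are then all below 0, between -1.15 and -0.45.

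None of the 3 regulators was called higher in any of the 4 comparisons by limma, also at an unadjusted p under 0.05, and ECM22 and SUT1 were called lower late. ECM22 had 94.3, 47.8 and 60.7 at inoculation, 96.4, 110.0 and 106 after 4 h, 68.1, 38.96 and 53.8 after 8 h, and 50.2, 15.7 and 23.9 after 30 h. It changed by -0.99 ± 0.39 (limma adjusted p = 0.0393) at 8h against 4h and by -1.29 ± 0.39 (limma adjusted p = 0.0107) at 30h against 0h, with calls that were lost without any of the 4h arrays, 8h B or 8h C (limma adjusted p up to 0.145) and without 30h B (limma adjusted p = 0.0612). The 30h call was also lost with arrays centred on their medians (-0.80, limma adjusted p = 0.0583) and with 0h A and 0h C left out (-0.80, limma adjusted p = 0.187). At 4h, ECM22 lay above 0h on every array, by 0.68 ± 0.39, which did not pass the test (limma adjusted p = 0.228). SUT1, a zinc cluster factor known in S. cerevisiae for promoting sterol uptake, had 201, 129 and 168 at inoculation, 90.4, 98.7 and 106 after 4 h, 29.0, 43.1 and 45.3 after 8 h, and 36.0, 62.8 and 75.8 after 30 h. Its late arrays all lay below its early ones, with a change of -1.36 ± 0.30 (limma adjusted p = 0.00146) at 8h against 4h and of -1.55 ± 0.30 (limma adjusted p = 0.000502) at 30h against 0h.

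UPC2 could not be measured well at 30h. Its signals were 49.6, 55.3 and 35.5 at inoculation, 35.7, 34.3 and 27.8 after 4 h, 21.3, 18.1 and 10.3 after 8 h, and 23.7, 38.1 and 0.720 after 30 h. The 30h C array, the lowest, was below background, as was 8h C. The changes were -1.03 ± 1.04 (limma adjusted p = 0.397) at 8h against 4h and -2.41 ± 1.04 (limma adjusted p = 0.0556) at 30h against 0h. Without 30h C the first was -1.06 (limma adjusted p = 0.0231) and the second -0.62 (limma adjusted p = 0.208), and without 30h A or 30h B the second was -3.19 (limma adjusted p = 0.0315) or -3.50 (limma adjusted p = 0.011), so its size rested on 1 array.

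The 2 esterification genes parted at 8h. Are1 and Are2 both join sterols to fatty acids for storage in lipid droplets, and in S. cerevisiae Are2 is the main one in air. ARE1 had 42.5, 91.4 and 87.8 at inoculation, 172, 169 and 168 after 4 h, 11.1, 16.6 and 52.3 after 8 h, and 25.2, 37.9 and 52.6 after 30 h. Its highest arrays were those of 4h and its lowest that of 8h A, which was below background. ARE1 fell by 2.998 ± 0.49 (limma adjusted p = 0.000113) at 8h against 4h, and its change at 4h against 0h, 1.28 ± 0.49, had a limma adjusted p of 0.0717, which was 0.0209 without 8h C. At 30h against 0h its change was -0.92 ± 0.49 (limma adjusted p = 0.112), and it was called lower without 0h A (-1.26, limma adjusted p = 0.0369) or without 8h C (-0.94, limma adjusted p = 0.0352).

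ARE2 was steadier. It had 95.0, 69.6 and 70.5 at inoculation, 109, 92.2 and 97.8 after 4 h, 73.0, 82.0 and 91.2 after 8 h, and 146, 125 and 138 after 30 h. The 30h arrays were the highest of the 12. Its change was 0.81 ± 0.22 (limma adjusted p = 0.00542) at 30h against 0h, and -0.28 ± 0.22 (limma adjusted p = 0.276) at 8h against 4h. On the deposited scale, where the median gene changed by -1.86, its change at 30h against 0h was -1.05.

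The 2 uptake transporters rose, and did so between 4h and 8h. PDR11 had 53.8, 41.9 and 40.4 at inoculation, 47.5, 41.4 and 42.1 after 4 h, 225, 321 and 386 after 8 h, and 404, 372 and 475 after 30 h. AUS1 had 68.5, 86.7 and 76.5 at inoculation, 63.8, 60.3 and 54.3 after 4 h, 233, 269 and 343 after 8 h, and 180.5, 144 and 245 after 30 h. Every late array lay above every early one for both genes. PDR11 was higher by 2.80 ± 0.25 (limma adjusted p = 5.77e-07) at 8h against 4h and by 3.20 ± 0.25 (limma adjusted p = 1.59e-07) at 30h against 0h, which is 6.95-fold and 9.22-fold. AUS1 was higher by 2.23 ± 0.25 (limma adjusted p = 4.35e-06) at 8h against 4h and by 1.27 ± 0.25 (limma adjusted p = 0.000515) at 30h against 0h, which is 4.68-fold and 2.41-fold.

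No single array ended any of these 4 calls. The scale mattered more: on the deposited signals AUS1 changed by 0.83 (limma adjusted p = 0.134) at 8h against 4h and by -0.67 (limma adjusted p = 0.21) at 30h against 0h, while PDR11 remained higher, by 1.45 (limma adjusted p = 0.00669) and 1.07 (limma adjusted p = 0.0345). With arrays centred on their medians both genes rose in both comparisons, by 1.97 and 1.10 for AUS1 and by 2.59 and 2.84 for PDR11. At 4h, PDR11 lay in the dimmest quartile of genes, where 59.1% of all genes were called higher at 8h, and AUS1 in the quartile above it, where 36% were.

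Ratios within an array do not move with a factor that scales the whole array, so 4 pairs of related genes were followed as log2 ratios. These ratios were taken from quantile-normalised signals. They can still move with the spread of signal over genes, which differed between early and late arrays. A ratio between probe sets has no absolute meaning, and only its change between times is read. The ratio of HMG1 over HMG2 averaged 2.86 ± 0.35 at inoculation, 1.49 ± 0.14 after 4 h, -0.74 ± 0.27 after 8 h and -0.06 ± 0.51 after 30 h (SD, n = 3 arrays each). The times did not overlap from 0h to 4h or from 4h to 8h. The ratio of ARE2 over ARE1 averaged 0.15 ± 0.87, -0.77 ± 0.11, 1.94 ± 1.01 and 1.88 ± 0.59 at the same times, with both late groups above both early ones except that 8h C, at 0.80, lay below 0h A, at 1.16.

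The 2 transporters also shifted against each other. The ratio of AUS1 over PDR11 averaged 0.77 ± 0.37 at inoculation, 0.44 ± 0.09 after 4 h, -0.12 ± 0.16 after 8 h and -1.16 ± 0.21 after 30 h, and the 8h and 30h groups each lay wholly below the group before. The ratio of UPC2 over ECM22 averaged -0.50 ± 0.62, -1.68 ± 0.25, -1.72 ± 0.64 and -1.62 ± 3.20, its 30h spread coming from the low UPC2 signal of 30h C. With 3 arrays against 3, an exact permutation test (two-sided, 20 splits) cannot go below p = 0.1. That value was reached at 4h against 0h by HMG1 over HMG2 (-1.37), ARE2 over ARE1 (-0.93) and UPC2 over ECM22 (-1.18). At 8h against 4h it was reached by HMG1 over HMG2 (-2.22), ARE2 over ARE1 (2.72) and AUS1 over PDR11 (-0.57), and at 30h against 8h by AUS1 over PDR11 (-1.04). In the comparison of 30h with 0h it was reached by HMG1 over HMG2 (-2.92), ARE2 over ARE1 (1.73) and AUS1 over PDR11 (-1.94). After Benjamini-Hochberg adjustment over the 16 tests the smallest exact p was 0.16, so none passed 0.05.

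**Figure D5:**
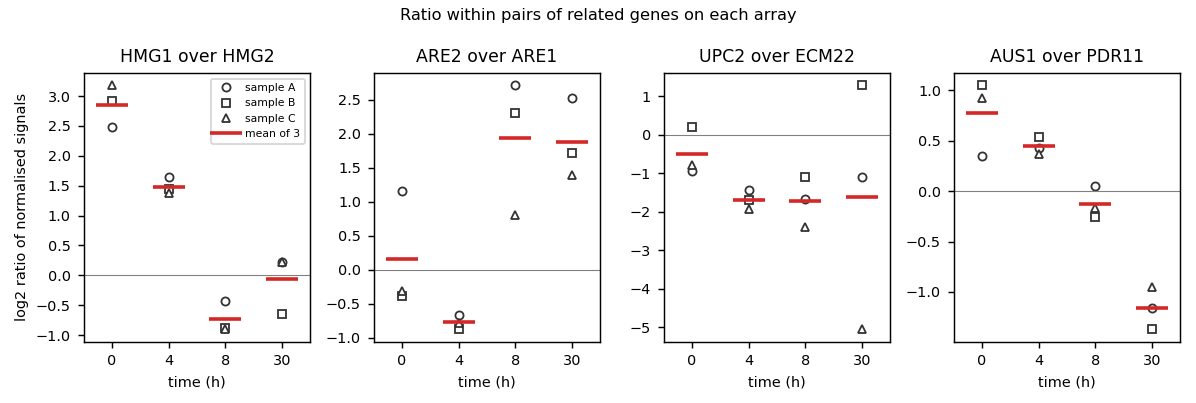
Log2 ratio of normalised signals within each array for 4 pairs of related genes at 0h, 4h, 8h and 30h; points are arrays and bars the mean of the 3. HMG1 over HMG2 and AUS1 over PDR11 are lower at 8h than at 4h, ARE2 over ARE1 is higher, and UPC2 over ECM22 at 30h is spread over the whole panel.

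The times at which genes peaked follow from these values. Of the 32 genes, 12 had their highest mean at inoculation, 15 after 4 h, 2 after 8 h and 3 after 30 h, against 25.1%, 31%, 17.7% and 26.2% of all genes. The 2 that peaked at 8h were ERG4 and AUS1, and the 3 at 30h were ERG7, ARE2 and PDR11. The lowest mean fell at 30h for 15 of the 32 and at 8h for 9, against 27.9% and 21.6% of all genes.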

How the data were processed

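Total RNA of 12 samples was measured on 12 single-colour arrays, and the authors deposited a linear intensity for each of 10928 probe sets on every array. Per the submitters' processing notes the tools were GCOS 5.0 with MAS5, whose settings are not given in the sources used here. The deposited intensity columns did not share a scale. Gene names came from a platform annotation table, which can be old: 5685 probe sets carried 1 S. cerevisiae gene, 4916 carried 1 S. pombe gene and 327 several genes or none. For each gene 1 probe set was kept, and genes with a mean signal under 7.74 (percentile 95 of the mean signals of S. pombe probe sets) were left out as dim (132 of 5635). Precision is limited by the number of arrays, 3 per time.

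Log2 signals of the 5503 remaining genes were quantile-normalised, and fitted with limma 3.58.1 under R 4.3.3. The calls lmFit, contrasts.fit and eBayes (trend = TRUE) used all 12 arrays, a coefficient for each time, and thus 8 residual degrees of freedom. Two-sided p-values received Benjamini-Hochberg adjustment over the 5503 genes in each of the 4 comparisons: each later time against the time before it, and the last time against 0h. The limma fit was tested on simulated data in which each gene had the same spread at all times and no normalisation was run. That test therefore does not cover the differences between arrays or between the spreads of the times. All 32 members and their steps were named by rule. Of the neighbouring pathway lists, the 4 genes with the largest absolute change in each comparison were considered for naming. The members, lists and tests were chosen with earlier results of these data known. Alternatives were the deposited scale, median centring, pseudocounts of 16 and 100, no filter on dim probe sets, the mean of all probe sets of a gene, no variance trend, a replicate block, the fit of 2 times alone and leaving out each array. Single genes were followed under these alternatives for the 32 members only, so calls on neighbouring genes were not checked against them. Leaving out 0h A and 0h C together was added after seeing the data. Promoter and protein sequences were not analysed here.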

Additional observations from a re-analysis of the deposited data

How the results depend on the processing

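The counts of 22 sterol genes lower at 8h than at 4h and of 21 lower at 30h than at 0h stayed within 1.5 times under every alternative, the first between 20 and 28 and the second between 17 and 29. On the deposited scale, 2842 of all tested genes were called lower at 8h against 4h, in place of 1863. At 30h against 0h, 3635 were, in place of 1830. A steady sterol count on that scale therefore does not show a steady contrast with all genes. With median centring the counts over all genes were 1959 and 1868. Other sterol counts were small and moved. On the deposited scale, the median over all genes changed by -1.17 at 4h against 0h, by -1.28 at 8h against 4h, by 0.58 at 30h against 8h and by -1.86 at 30h against 0h, and the share of all calls that were higher was 1.7%, 17.5%, 60% and 8.87%, in place of 50%, 47.6%, 25% and 48.4%. The sterol counts on that scale were 0 higher and 12 lower at 4h against 0h, 1 higher at 8h against 4h, 0 lower at 30h against 8h and 1 higher at 30h against 0h. The 12 lower at 4h against 0h stand beside 2609 of all tested genes, in place of 648. Among changes called on either of these scales, directions reversed for IDI1 (-1.95), ERG7 (-1.32) and ERG4 (-1.05) at 8h against 4h, and for ERG13 (-2.85), ERG7 (-2.67), ARE2 (-1.05) and AUS1 (-0.67) at 30h against 0h. Uncalled changes also turned sign there, such as that of HMG2 at 30h against 0h (-1.14). Median centring gave 4 higher at 4h against 0h, 2 higher at 8h against 4h and 0 lower at 30h against 8h (12.2% of all calls there were higher), and reversed IDI1 (-0.81) and ERG7 (-0.19) at 8h against 4h and ERG7 (-0.89) at 30h against 0h. At 4h against 0h, pseudocounts of 16 and 100 gave 2 and 4 higher, and the 2 times alone gave 3. At 30h against 8h, a pseudocount of 100 and the 2 times alone each gave 0 lower, and with a pseudocount of 100 the share of all calls there that were higher was 46.3%. Without 0h A and 0h C, 1 was lower at 4h against 0h, and at 30h against 8h 1 was higher and 2 lower. Leaving out single arrays gave 1 to 2 higher and 0 to 5 lower at 4h against 0h, 0 to 1 higher and 0 to 4 lower at 30h against 8h, and a change of -0.59 to 0.49 for ERG13 at 30h against 0h. The cause of these shifts was not tested. Deviations from the mean of a time correlated at -0.21 to 0.237 over 18 pairs of same-letter samples, 2 of them over 0.1. Over 36 pairs with different letters the range was -0.309 to 0.26, with 3 over 0.1. With 3 arrays per time, these values cannot show whether the letters link samples. The replicate block gave 2 higher and 2 lower at 4h against 0h. The dim signals of UPC2, ARE1 and ERG27 limit their late values most.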

Other observations

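Calls on the neighbouring genes of this section were not checked under other scalings or without single arrays, 0h A included. At 8h against 4h (30.7% of all genes higher, 33.9% lower), among 17 tested genes of steryl ester hydrolysis, sterol acetylation and sterol transport, 8 were called higher and 5 lower, with a median change of 0.26. HES1 and OSH6, which encode oxysterol-binding-protein homologues that move sterols or lipids between membranes, rose by 3.16 ± 0.28 (limma adjusted p = 5.68e-07) and 2.42 ± 0.46 (limma adjusted p = 0.000391), while OSH3 of the same family dropped by 2.46 ± 0.36 (limma adjusted p = 4.89e-05). At 4h HES1 (mean log2 signal 4.38) was dimmer than PDR11 (5.45) and so lay in the dimmest quartile. In that quartile 59.1% of all genes were called higher at 8h, with a median change of 1.31. PRY1, which encodes a secreted sterol-binding protein, was not above background on any 8h array, where it was at least 5.81-fold lower than at 4h (limma adjusted p = 7.51e-05). At 30h against 0h, 9 of the 17 were called higher and 5 lower (31.2% and 33.3% of all genes), the higher ones including YEH2, a steryl ester hydrolase (1.78 ± 0.34, limma adjusted p = 0.000438), and NCR1, the yeast homologue of the Niemann-Pick C sterol transporter (1.65 ± 0.33, limma adjusted p = 0.000625).

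Heme is the cofactor of the sterol cytochromes, and its synthesis also needs oxygen. Of the 8 heme genes, 2 were called higher and 1 lower at 8h against 4h (30.7% and 33.9% of all genes). HEM15, ferrochelatase, rose by 1.79 ± 0.20 (limma adjusted p = 5.07e-06), after a rise of 1.46 ± 0.20 (limma adjusted p = 0.000236) at 4h against 0h, when HEM13, the oxygen-requiring coproporphyrinogen oxidase, rose by 1.55 ± 0.35 (limma adjusted p = 0.00665). HEM14, protoporphyrinogen oxidase, was at least 3.16-fold lower than at 4h, with no 8h array above background (limma adjusted p = 0.000868). Among 6 oxygen- and heme-responsive transcription factors, 3 were called higher and 2 lower at 8h against 4h, beside the same shares of all genes. ROX1, the repressor of hypoxic genes, rose by 2.26 ± 0.27 (limma adjusted p = 6.37e-06). HAP1, the heme-dependent activator, was at least 6.87-fold lower, again with no 8h array above background (limma adjusted p = 3.38e-05).

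Other users of isoprenoids and the factors that regulate or degrade sterol enzymes gave 3 higher and 6 lower of 10, and 3 lower of 8, by limma at 8h against 4h. Of all genes, 30.7% were called higher and 33.9% lower. RAM2, a subunit of protein prenyltransferases, dropped by 2.55 ± 0.45 (limma adjusted p = 0.000231), with 1 of its 3 8h arrays above background. SRT1, a cis-prenyltransferase of dolichol synthesis, rose by 3.54 ± 0.41 (limma adjusted p = 6.05e-06), with 1 of its 3 4h arrays above background. The sizes of these 2 changes therefore rest on signals mostly at background. At 4h SRT1 (mean log2 signal 3.14) also lay in the dimmest quartile, where 59.1% of all genes were called higher at 8h. The 3 degradation genes that fell were UBC7, CUE1 and SSM4, which encode an endoplasmic reticulum ubiquitin-conjugating enzyme, its membrane anchor and a ubiquitin ligase, with changes of -3.14 ± 0.59, -2.17 ± 0.39 and -1.23 ± 0.27 (limma adjusted p of 0.000371, 0.000276 and 0.0014). UBC7 was above background on 2 of its 3 8h arrays, so the size of its fall rests in part on a signal at background.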
